A study of Mus musculus with 7 samples.

Results

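The genes described are 9 transcription factor genes of the myeloid lineages, Spi1, Cebpa, Cebpb, Cebpd, Cebpe, Nr1h3, Irf8, Irf5 and Batf3. They were chosen by gene name from the 54532 genes of the deposited table, and each name matched 1 entry. The values are FPKM, reads scaled by gene length and by a factor for each library. The sequenced RNA came from splenic cells of IL-17GFP/+ mice, sorted for the fluorescent protein that reports IL-17 and labelled Th17, a T helper cell (genotype IL-17GFP+). The 4 health libraries, numbered 1 to 4, came from mice without ligature. The 3 periodontitis libraries carry the numbers 2 to 4 and came from mice with silk thread tied around the first molars on both sides of the lower jaw. Mice of both groups carried the reporter. Age is not given in the labels, and neither is the time from ligature to sorting. Nothing in the labels ties each library to a mouse of its own, so p-values measure the spread between libraries, which may be technical.

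Spi1 encodes PU.1, the ETS-family factor without which macrophages, dendritic cells and neutrophils do not form normally. The C/EBP factors act with it. C/EBP alpha sets up granulocyte and monocyte precursors, C/EBP epsilon drives the making of secondary granules in neutrophil precursors, and C/EBP beta and delta serve maturation and inflammatory responses. IRF8 directs monocytes, type 1 conventional dendritic cells and also B cells, while IRF5 drives inflammatory cytokine genes downstream of Toll-like receptors. BATF3 is required for type 1 conventional dendritic cells. NR1H3, or LXR alpha, is a sterol-sensing nuclear receptor that macrophages of the splenic marginal zone need in mice.

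The libraries held RNA of other cells besides the labelled type. All 8 T cell markers were higher in periodontitis (limma adjusted p under 0.05), beside 5.63% of all genes tested. Their summed levels were 161 to 333 FPKM without ligature and 1028 to 2396 FPKM with it. Il17a, the gene the reporter stands for, had 0 to 73 reads in health libraries and 2254 to 6297 in periodontitis libraries. All 12 macrophage markers were lower in periodontitis by the same test, beside 10.2% of all genes tested. Their summed levels were 4047 to 11823 FPKM without ligature and 340 to 813 FPKM with it. Xist ran from 52.1 to 72.5 FPKM in health libraries and from 0.135 to 1.35 FPKM in periodontitis libraries, and the Y-linked gene Ddx3y had reads in the 3 periodontitis libraries and in none from health. The sex of the mice and periodontitis cannot be told apart for any gene. Library depth, recovered from the FPKM values, was 13513806 to 17891393 reads, and the 9 genes had between 73 and 9155 reads per library.

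All 9 genes passed the filter of a mean of at least 1 FPKM. By mean level in health their order was Cebpb, Spi1, Irf5, Nr1h3, Irf8, Cebpe, Cebpd, Cebpa and Batf3, from 160.4 to 17.3 FPKM. The health ranges of Spi1 and Irf5 did not overlap, nor did those of Cebpe and Cebpd, while all other neighbours in the order overlapped. Among the 1053 genes with reads in health to which the deposited table gives a transcription factor family, Cebpb ranked 6 and Spi1 ranked 8 by mean FPKM. In periodontitis Cebpb ranked 18 and Spi1 ranked 42 among 961. Irf8 went from rank 20 to rank 153, and Nr1h3 from 17 to 275. The table gives Cebpd no family, so it has no rank.

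Of the 9 genes, 8 were lower in periodontitis and none was higher. Of the 12999 genes tested, 10.2% were lower and 5.63% higher (two-sided limma test of log2(FPKM + 1), adjusted p under 0.05 by Benjamini and Hochberg). Cebpe did not pass. For the same 8 genes every periodontitis library lay below every health library, which held for 17.2% of all genes tested. For none of the 9 did every periodontitis library lie above every health library, which held for 12.6% of all genes tested. The median log2 fold change was -1.68 over the 9 genes and -0.06 over all genes tested. In bulk RNA, fewer cells of a type and less RNA per cell cannot be told apart, here or in any result that follows. The count of lower genes ran from 6 to 9 when single libraries were left out. It was 6 without health 1, health 2, periodontitis 3 or periodontitis 4.

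**Figure D1:**
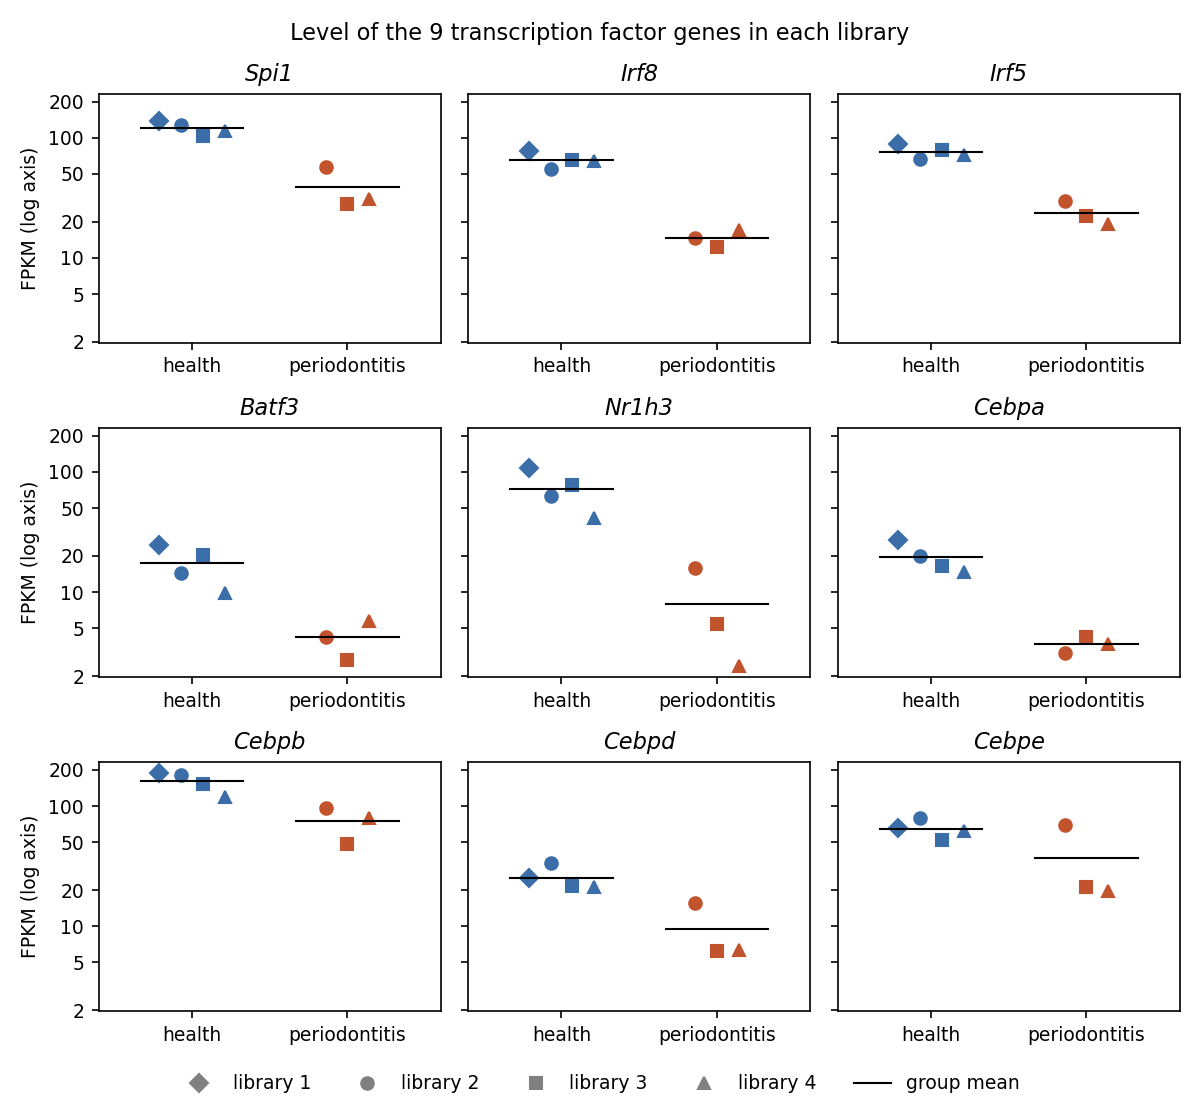
FPKM of each of the 9 genes on a log axis, with health in blue and periodontitis in orange. Each point is a library, its shape gives the library number and the line is the group mean. The periodontitis points lie below all health points for every gene except Cebpe, where periodontitis 2 lies among the health values.

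The factor common to the myeloid lineages, Spi1 (chromosome 2, 91082390 to 91115756, plus strand, mm10), stood at 138, 129, 104 and 114 FPKM in health libraries 1 to 4. With ligature it stood at 57.5, 28.0 and 30.8 FPKM in libraries 2 to 4. Periodontitis 2 was the highest of its group, and the groups did not overlap. The mean was 121 ± 14.9 FPKM over the health libraries (SD, n = 4) and 38.8 ± 16.3 FPKM over the periodontitis libraries (SD, n = 3). The log2 fold change was -1.68, with an SE of 0.28 and a 95% interval from -2.33 to -1.04 (limma adjusted p = 0.0051).

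Both interferon regulatory factors fell. Irf8 (chromosome 8, 120736358 to 120756694, plus strand) was at 78.2, 55.1, 65.3 and 64.1 FPKM in health libraries 1 to 4, while libraries 2 to 4 from periodontitis had 14.6, 12.3 and 16.9 FPKM. The periodontitis libraries lay close together, and the log2 fold change of -2.09 had the smallest standard error of the set, 0.21 (limma adjusted p = 0.000727). Irf5 (chromosome 6, 29526625 to 29541871, plus strand) was at 89.3, 66.0, 79.0 and 72.4 FPKM in the health libraries, against 29.8, 22.4 and 19.0 FPKM with ligature. The groups did not overlap, and the log2 fold change was -1.67 (SE 0.22, limma adjusted p = 0.00203).

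Batf3 (chromosome 1, 191097847 to 191108945, plus strand) had the lowest mean of the set in health, from values of 24.7, 14.5, 20.3 and 9.77 FPKM in libraries 1 to 4. It was at 4.21, 2.72 and 5.70 FPKM in periodontitis libraries 2 to 4, which rested on 73 to 129 reads. The health libraries spread widely, and health 4 came nearest to the periodontitis values without reaching them. The log2 fold change was -1.78 (SE 0.34, limma adjusted p = 0.00926).

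The sterol receptor gene Nr1h3 (chromosome 2, 91184061 to 91202834, minus strand) had the largest log2 fold change of the 9. It was at 108, 63.7, 77.3 and 41.5 FPKM in health libraries 1 to 4 and fell to 15.8, 5.46 and 2.44 FPKM in periodontitis libraries 2 to 4. Libraries spread widely within each group, but the groups did not overlap. The health mean was 9.20 times that of periodontitis, and the log2 fold change was -3.27, with a 95% interval from -4.48 to -2.07 (SE 0.53, limma adjusted p = 0.00428). It was -3.88 without periodontitis 2 and -2.74 without periodontitis 4.

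Of the 9 genes, 6 had windows of 300 bases around a transcription start in the RefSeq table used here (GRCm38.p6), reaching from 250 bases before the start to 50 after it. The motifs searched, on both strands, were GAGGAA (the ETS core bound by PU.1), TTGCNNAA (C/EBP), GAAA repeated after a gap of 2 bases (IRF), GGAA followed by GAAA after the same gap (ETS with IRF), AGGTCA (nuclear receptors), TTCNNNGAA (STAT factors) and TGANTCA (AP-1). All windows with a match are shown, and those without a match are not. The Irf8 window at chr8:120736108-120736407 (plus strand) held TTCNNNGAA at 171 and at 153 bases before the start. The Batf3 window at chr1:191098164-191098463 (plus strand) held TTCNNNGAA at 239 bases before the start and GAGGAA at 153 bases before it. The Nr1h3 window at chr2:91194986-91195285 (minus strand) held GAGGAA at 10 bases after the start. Capitals mark these matches.
Irf8: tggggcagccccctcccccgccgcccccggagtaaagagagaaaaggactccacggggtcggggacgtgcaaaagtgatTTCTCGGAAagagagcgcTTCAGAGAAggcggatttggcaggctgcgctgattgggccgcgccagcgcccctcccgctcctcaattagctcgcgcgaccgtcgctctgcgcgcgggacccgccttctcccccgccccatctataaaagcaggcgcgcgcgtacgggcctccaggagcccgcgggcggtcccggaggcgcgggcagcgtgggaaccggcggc
Batf3: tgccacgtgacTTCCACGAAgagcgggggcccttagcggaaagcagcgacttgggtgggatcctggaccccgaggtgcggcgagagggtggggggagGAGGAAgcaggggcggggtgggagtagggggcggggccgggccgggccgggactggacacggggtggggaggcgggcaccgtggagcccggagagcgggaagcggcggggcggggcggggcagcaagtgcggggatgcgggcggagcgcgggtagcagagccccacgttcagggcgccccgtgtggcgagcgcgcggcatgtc
Nr1h3: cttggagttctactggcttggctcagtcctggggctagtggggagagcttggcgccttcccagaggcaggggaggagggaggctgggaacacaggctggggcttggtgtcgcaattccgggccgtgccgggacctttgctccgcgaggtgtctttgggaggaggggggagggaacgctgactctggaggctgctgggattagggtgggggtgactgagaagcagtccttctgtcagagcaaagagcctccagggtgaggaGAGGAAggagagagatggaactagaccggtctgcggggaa
Over all 32851 windows of this length, 28.3% held GAGGAA and 8.30% held TTCNNNGAA, so the matches are a description and not a sign of binding. No motif was found in the windows of Cebpa, Cebpb and Irf5, nor in a further window each of Irf8 and Nr1h3, which says only that these letters are not there.

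The C/EBP genes differed among themselves. Cebpa (chromosome 7, 35119293 to 35121928, plus strand) was at 26.9, 20.01, 16.4 and 14.6 FPKM in health libraries 1 to 4 and at 3.14, 4.26 and 3.69 FPKM in periodontitis libraries 2 to 4. Periodontitis 2 was its lowest library, whereas that library was the highest of its group for Spi1, Irf5, Nr1h3, Cebpb, Cebpd and Cebpe. The log2 fold change of Cebpa was -2.09 (SE 0.24, limma adjusted p = 0.00118).

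Cebpb (chromosome 2, 167688915 to 167690418, plus strand) had the highest mean of the set in both groups. Its values were 188, 183, 152 and 119 FPKM in health libraries 1 to 4 and 95.9, 48.1 and 80.4 FPKM in periodontitis libraries 2 to 4. Health 4 and periodontitis 2 came closest, and the log2 fold change was -1.12 (SE 0.30, limma adjusted p = 0.0371). Cebpd (chromosome 16, 15887286 to 15891031, plus strand) had 25.0, 33.8, 21.6 and 21.2 FPKM in the health libraries. Its periodontitis libraries had 15.6, 6.29 and 6.40 FPKM, with periodontitis 2 again nearest to health, and the log2 fold change was -1.43 (SE 0.33, limma adjusted p = 0.0213). Leaving out health 1, 2 or 3 or periodontitis 3 or 4 ended the call of Cebpb (limma adjusted p of up to 0.105). Leaving out health 1 or 2 or periodontitis 3 or 4 ended that of Cebpd (up to 0.0621).

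Cebpe (chromosome 14, 54710360 to 54712174, minus strand) was the exception. It was at 66.1, 79.4, 52.7 and 62.0 FPKM in health libraries 1 to 4, against 70.2, 21.3 and 19.8 FPKM in periodontitis libraries 2 to 4. In deposited FPKM, periodontitis 2 lay inside the health range, while periodontitis 3 and 4 lay below it. The FPKM of all genes summed to 568848 in periodontitis 2 and to 375857 to 379328 in health libraries. As a share of that sum, Cebpe in periodontitis 2 lay below every health library. As a share of recovered reads it lay inside the health range, with 1294 reads of 16717942. The log2 value was -1.03 (SE 0.42, limma adjusted p = 0.142), and without periodontitis 2 it was -1.60 (limma adjusted p = 0.00505).

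**Figure D2:**
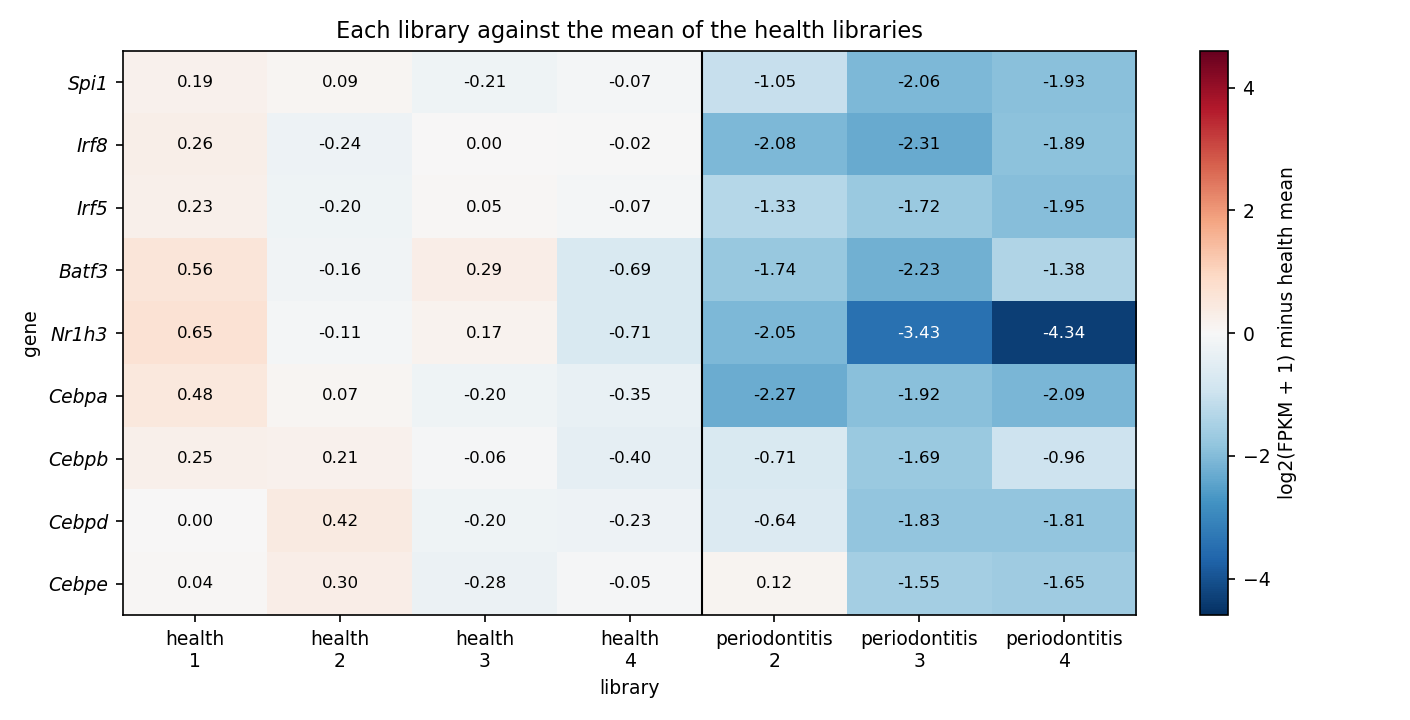
Difference of log2(FPKM + 1) from the mean of the 4 health libraries, for each gene (rows) and library (columns), blue where lower and red where higher. Periodontitis 2 is at 0.12 for Cebpe and -0.64 for Cebpd, against -1.55 and -1.83 in periodontitis 3, while Cebpa lies between -2.27 and -1.92 in the 3 periodontitis libraries.

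The genes whose pattern over the 7 libraries lay nearest to that of Cebpe were Lcn2, a secondary granule protein, S100a9, an abundant calcium-binding protein of neutrophils, and the tubulin gene Tuba8. Their root mean square distances, on log2(FPKM + 1) centred on the mean of each gene, were 0.13, 0.16 and 0.18. Libraries share depth and cell make-up, so this likeness is a description. Lcn2 was at 575 FPKM in periodontitis 2 and at 212 and 186 FPKM in periodontitis 3 and 4, with a health range of 467 to 794 FPKM. The summed level of 10 neutrophil markers was 24311 FPKM in periodontitis 2, 7135 in periodontitis 3 and 5923 in periodontitis 4, with a health range of 16450 to 26945 FPKM. S100a8 and S100a9 made up most of this sum, at 6786 and 10376 FPKM in periodontitis 2. Of the 10 markers, 4 were lower in periodontitis and 6 were not called, beside 10.2% lower over all genes tested. In deposited FPKM, Mmp9, Csf3r, Cxcr2 and Ltf lay below their health range in periodontitis 2. There S100a9, Retnlg and Ngp lay within it, and S100a8, Ly6g and Camp above it. As shares of the FPKM sum of a library, Lcn2 and this marker sum lay below every health library in periodontitis 2. By share of recovered reads, Lcn2 lay inside the health range there. The part of neutrophil RNA in the value of Cebpe was not tested.

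Granulocyte genes were not uniformly high in periodontitis 2. The positions that follow are in deposited FPKM. Of 12 genes reported as targets of C/EBP alpha or epsilon in granulocytes, 6 lay below their health range in that library, 5 within it and 1 above it. Those below were Csf3r, a receptor of mature neutrophils, the primary granule gene Mpo, Ltf and Fcnb, and the matrix protease genes Mmp8 and Mmp9. Those within were the primary granule protease genes Elane and Prtn3, and Ngp, Lcn2 and Chil3, while Camp was above. By share of recovered reads, Camp was not above its health range and Prtn3 was below its own. Camp had 30842 reads of 16717942 in periodontitis 2 and 31046 of 16209272 in health 2. Prtn3 had 2802 reads in periodontitis 2 and 2641 of 14161438 in health 4, its lowest health library. Secondary granule genes were split, with Ltf at 552 FPKM (health range 867 to 1458), Lcn2 within its range and Camp at 2739 FPKM (health range 1365 to 2433). Primary granule genes were split too, with Mpo at 40.6 FPKM (health range 64.4 to 129.7) and Elane at 142 FPKM (health range 112 to 223).

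Over all libraries, 6 of these 12 genes were lower in periodontitis, none was higher, and the median log2 fold change was -1.29. Over all genes tested 10.2% were lower and 5.63% higher. The lower ones were Csf3r (-2.41), Mpo (-1.58), Mmp8 (-1.54), Mmp9 (-1.53), Ltf (-1.39) and Fcnb (-1.30). The calls of Ltf and Fcnb were lost when any health library or periodontitis 3 or 4 was left out, with an adjusted p of up to 0.123. That of Mmp8 was lost without health 4 or periodontitis 4 (0.0502 and 0.0544), and that of Mmp9 without periodontitis 4 (0.0518).

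**Figure D3:**
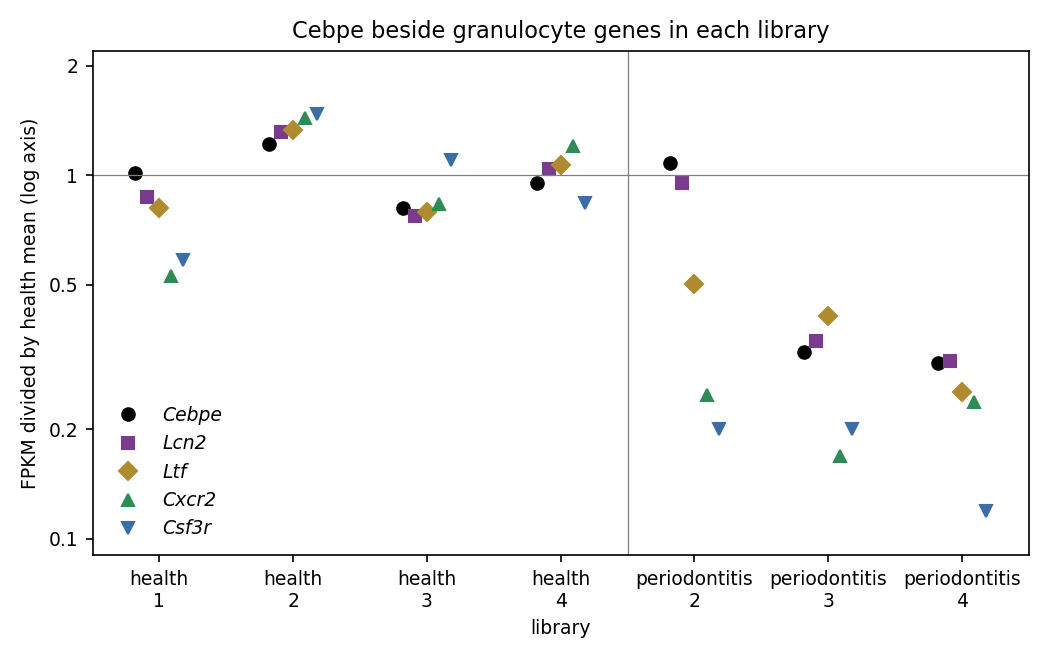
FPKM of Cebpe, Lcn2, Ltf, Cxcr2 and Csf3r in each library, divided by the mean of the health libraries, on a log axis. In periodontitis 2 Cebpe and Lcn2 are at 1.08 and 0.952 times the health mean, Ltf is at 0.503, and Cxcr2 and Csf3r are at 0.248 and 0.1998. Cxcr2 and Csf3r do not stand for all neutrophil markers, as S100a8 and Ly6g lay above their health range in that library in deposited FPKM.

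The 3 nearest genes of the other members were found the same way. Those of Spi1 were Copz2, Tpd52 and Cpne2, at distances of 0.09 to 0.17. Those of Irf8 were Nuak2, Csf2ra and Fnip2 (0.15 to 0.18), those of Irf5 were Sfxn5, Mctp1 and Gbp3 (0.15 to 0.16), and those of Batf3 were Sh3bp2, Nrros and Mcfd2 (0.16 to 0.18). For Cebpa they were Nuak1, Tmem229a and Fgd2 (0.11 to 0.14), for Cebpb Ralb, Ptpn6 and Epn1 (0.19 to 0.21), and for Cebpd Ptov1, Fpr2, a formyl peptide receptor of phagocytes, and Tnfsfm13 (0.16 to 0.21). Nr1h3 had the most distant nearest genes of the 9, Tmem51, Cd302 and Fam213b, at 0.24 to 0.31. The added 1 FPKM shrinks changes of low genes, so a low gene can lie near a member that changed by a smaller ratio. Copz2 averaged 2.70 FPKM without ligature and 0.264 FPKM with it, whereas Spi1 averaged 121 and 38.8 FPKM. Tmem229a (3.44 and 0.0154 FPKM), Sfxn5 (3.14 and 0.385 FPKM) and Mctp1 (3.25 and 0.265 FPKM) were low genes too. Some near genes had higher levels, such as Tpd52 at 26.5 and 8.20 FPKM.

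The members were then set beside relatives of their own families. Each count of a family stands beside 10.2% lower and 5.63% higher over all genes tested. Of 3 related ETS genes, Spi1 and Spic, a factor of red pulp macrophages, were lower. Spib, which B cells and plasmacytoid dendritic cells use, did not pass (log2 value -0.62, limma adjusted p = 0.17). It passed without health 1 (adjusted p = 0.0351) and, at -1.08, with libraries rescaled to the same total (adjusted p = 0.0232). Spic fell from 180.2 ± 94.5 FPKM (SD, n = 4) to 10.2 ± 3.43 FPKM (SD, n = 3). Of 6 C/EBP genes, 3 were lower and none higher. Cebpg, which lacks an activation domain of its own, had a log2 value of -0.44 and the stress-response gene Ddit3 of 0.62, and neither passed.

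Of 8 tested IRF genes, Irf5 and Irf8 were lower, Irf4 was higher and 5 did not pass. Irf4, which lymphocytes use, averaged 10.3 ± 3.15 FPKM in health libraries and 21.0 ± 4.68 FPKM in periodontitis libraries (SD, limma log2 fold change 0.98, adjusted p = 0.0433). Leaving out health 1, 2 or 3, or periodontitis 3 or 4, ended its call, and its adjusted p reached 0.204 with libraries rescaled to the same total. Irf7, which amplifies type I interferon responses, had a log2 value of -0.72 (limma adjusted p = 0.104), with every periodontitis library below every health library. It did not pass, but did so at -1.17 with libraries rescaled to the same total (adjusted p = 0.0109). Irf1, Irf2, Irf3 and Irf9 had log2 values of -0.01, -0.33, 0.37 and 0.04.

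Nr1h2 encodes LXR beta, which most cells express. It averaged 38.3 ± 2.51 FPKM in health libraries and 48.5 ± 9.07 FPKM in periodontitis libraries (SD, log2 value 0.32, limma adjusted p = 0.32), and the sign turned with libraries rescaled to the same total. Rxra, the partner receptor of LXR alpha, was lower (-1.87, limma adjusted p = 0.00604), and Rxrb did not pass. Batf, the relative of Batf3 that Th17 cells require, rose from 18.5 ± 1.47 FPKM to 57.7 ± 21.9 FPKM (SD, log2 fold change 1.52, limma adjusted p = 0.00643). The genes of the JUN proteins with which BATF factors pair were also higher, Junb by 1.75, Jund by 1.65 and Jun by 1.47. Of the 6 BATF and JUN genes, 4 were higher and 1 lower, and Batf2 was not called (log2 value -1.07, limma adjusted p = 0.209). The call of Jund was lost with library numbers as a replicate block (adjusted p = 0.0537). The call of Jun was lost without health 2 (adjusted p = 0.0598), without health 3 (0.0561), with libraries rescaled to the same total and with quantile normalization.

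**Figure D4:**
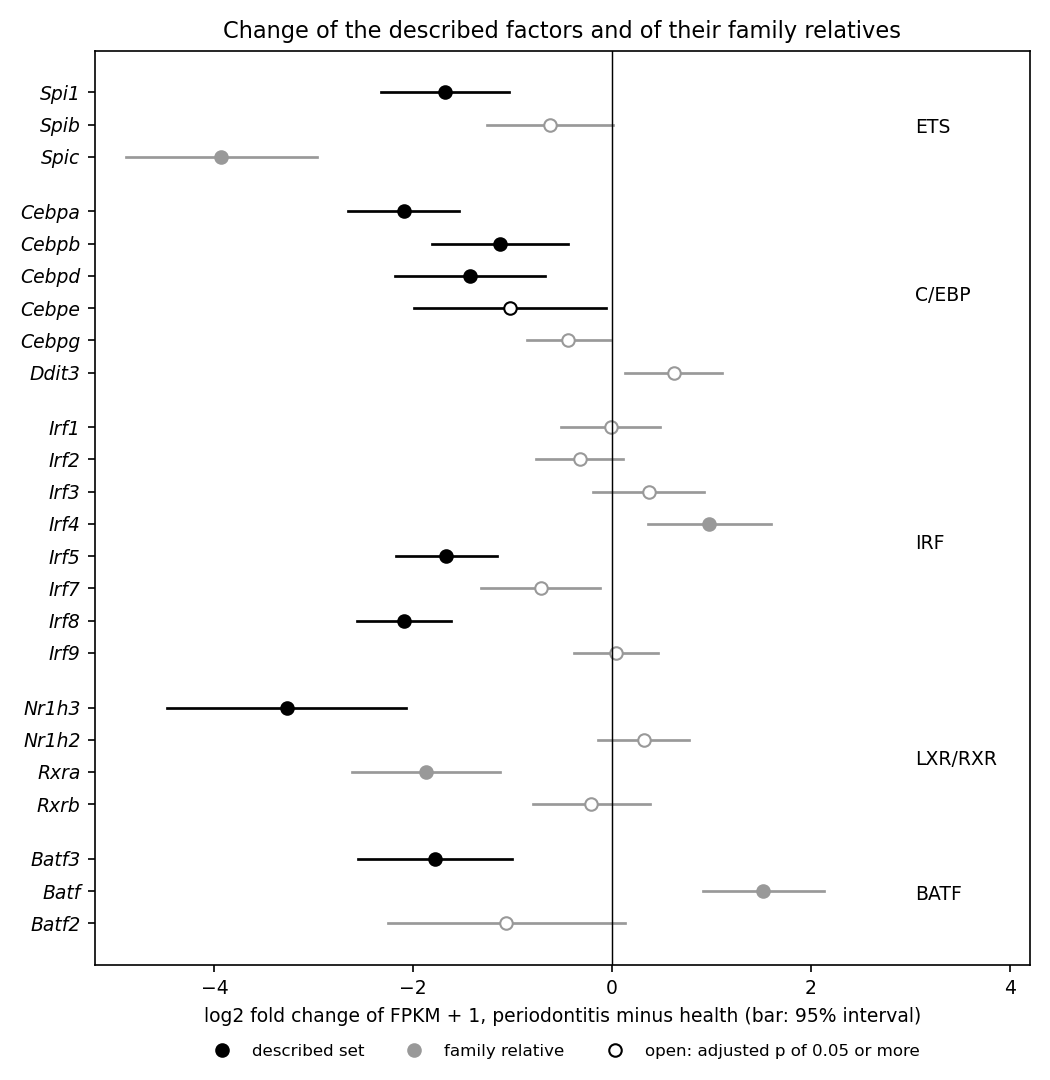
Log2 fold change of FPKM + 1, periodontitis minus health, with its 95% interval from limma, for the 9 genes (black) and their tested relatives (grey). Filled points passed an adjusted p of 0.05. Nr1h3 and Batf3 lie left of 0, at -3.27 and -1.78, and Batf right of it at 1.52; Nr1h2, at 0.32, did not pass and lay left of 0 with libraries rescaled to the same total.

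Within a library, the difference between a member and a relative does not depend on how the library was scaled, apart from the added 1 FPKM. The pairs were picked after values were seen, and Irf8 and Batf3 had been called lower and Irf4 and Batf higher. Their separation was therefore largely set in advance, and the p-values given here are no further support. The share of all gene pairs without overlap was not computed. Irf8 minus Irf4 was 2.06 to 3.31 on the log2(FPKM + 1) scale in health libraries and -0.85 to -0.09 in periodontitis libraries, a change of -3.07. Nr1h3 minus Nr1h2 changed by -3.59, Batf3 minus Batf by -3.30 and Cebpa minus Cebpg by -1.65. The groups did not overlap for these 4 pairs, each with an exact two-sided permutation p of 0.0571, the smallest that 4 against 3 libraries allow, and 0.0714 after adjustment over the 5 pairs compared. Spi1 minus Spib overlapped between groups and changed by -1.06 (exact permutation p = 0.114). Irf8, Nr1h3 and Cebpa were above their relatives in every health library and below them in every periodontitis library.

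**Figure D5:**
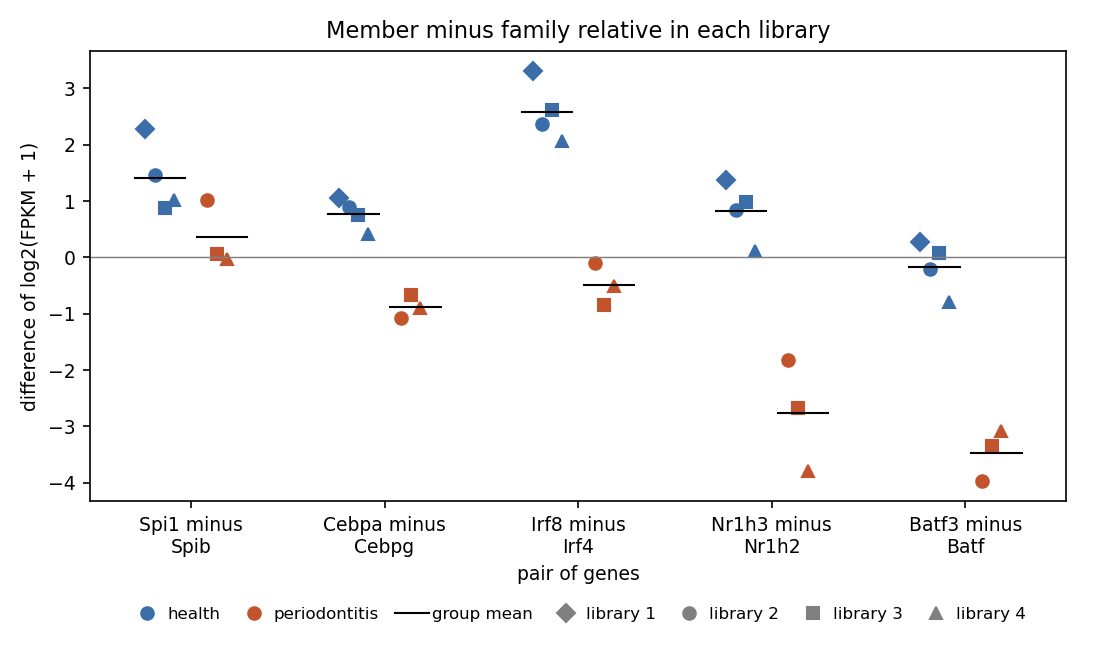
Difference of log2(FPKM + 1) between a member and a family relative in each library, health in blue and periodontitis in orange, with group means as lines. For Irf8 minus Irf4 the health mean is 2.59 and the periodontitis mean -0.48, and for Batf3 minus Batf they are -0.16 and -3.47.

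Against Spi1 in the same library, Nr1h3 was lower in periodontitis by a log2 difference of -1.59, and Cebpb and Cebpe were higher by 0.56 and 0.66. For these 3 the groups did not overlap (exact two-sided permutation p = 0.0571, the smallest possible, and 0.152 after adjustment over the 8 genes compared). For Cebpa, Cebpd, Irf8, Irf5 and Batf3 the groups overlapped, with differences between -0.41 and 0.25. Spi1 itself changed by -1.68 and the median of all genes tested by -0.06. A gene at that median therefore rises against Spi1 by more than Cebpb or Cebpe, so their rise is no trait of these factors. The share of all genes without overlap on this scale was not computed. A threshold of 0.05 cannot be reached in this design.

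The 12 macrophage markers changed by -3.90 on average on the log2 scale. Relative to their mean in each library, 8 of the 9 genes were higher in periodontitis, by 1.81 to 2.88, and none was lower. On that scale 98.2% of all genes tested were higher and 0.00769% lower, with a median of 3.84, so the count is no result about the factors. Nr1h3 was the gene that did not pass, with a difference of 0.63 (95% interval -0.43 to 1.69; limma adjusted p = 0.243). Health 1 had the highest macrophage marker sum, 11823 FPKM, and the highest value of its group for Spi1, Irf8, Irf5, Batf3, Nr1h3, Cebpa and Cebpb. The part of macrophage RNA in these values was not tested.

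Genes reported as targets of the factors were counted in lists. Each count of a list, here and below, stands beside 10.2% lower and 5.63% higher over all genes tested. Of 14 PU.1 targets, 12 were lower and none higher, and their median log2 fold change was -2.19, beside 10.2% lower and a median of -0.06 over all genes tested. Csf1r, the receptor for macrophage colony-stimulating factor, changed by -3.73, and the antibody receptor gene Fcgr1 and the mannose receptor gene Mrc1 by -3.56 and -4.54. These 3 and Cd68 are also among the macrophage markers. Csf2ra, a receptor chain for GM-CSF, fell from 137 ± 10.9 FPKM to 37.3 ± 5.56 FPKM (SD). Its pattern lay at a distance of 0.17 from that of Irf8.

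Of 14 LXR targets, 8 were lower and 1 higher, and their median was -1.30. Abca1, a cholesterol exporter, fell from 23.6 ± 10.2 FPKM to 2.42 ± 0.427 FPKM (SD). Mertk, a receptor for dead cells and also a macrophage marker, changed by -4.57, and the macrophage gene Cd5l by -3.69. The lipid synthesis genes Srebf1, Scd1 and Scd2 had log2 values of -0.31, -1.04 and -0.63 and were not called.

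Of 10 genes tied to IRF8 and BATF3 in type 1 dendritic cells, 6 were lower and 1 higher, and their median was -1.26. Clec9a, the dead-cell receptor of these cells, had 4.67 to 8.29 FPKM over the health libraries and 0.511 to 2.38 FPKM over the periodontitis libraries. Wdfy4, needed for cross-presentation, changed by -1.98 and the adhesion gene Cadm1 by -3.52. Itgae, which T cells also carry, was higher (2.37), and the chemokine receptor gene Xcr1 did not pass (0.55).

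Of 10 reported targets of C/EBP beta and delta, 4 were tested, and Cd14 and Il1b were lower, by log2 fold changes of -3.01 and -1.55. Hp and Ccl3 had log2 values of -0.98 and 0.38 and were not called, although Hp passed in 5 alternatives, without periodontitis 2 (adjusted p = 0.0154), in the 3 other scalings and with voom on the recovered reads. Leaving out health 2 or 3, or periodontitis 2 or 3, ended the call of Il1b (adjusted p of up to 0.0608). Of 8 cytokine genes reported as IRF5 targets, 5 were tested, none was lower and Tnf, which T cells also make, rose from 11.2 ± 3.16 FPKM to 39.5 ± 17.1 FPKM (SD). Il12b and Ccl4 had log2 values of -0.96 and 0.81 and were not called. Of 19 other myeloid transcription factor genes tested, 8 were lower and 2 higher. Among them Pparg, a lipid-sensing nuclear receptor gene, and Tfec changed by log2 fold changes of -3.40 and -2.84.

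Spi1 and Nr1h3 lie near each other on chromosome 2, with 68304 bases and 2 protein-coding genes between them. Madd, next to Nr1h3, averaged 18.9 FPKM in health libraries and 20.6 FPKM in periodontitis libraries (log2 value 0.09, limma adjusted p = 0.859), and Mybpc3 was under the filter. Slc7a8, an amino acid transporter gene next to Cebpe, was lower (-3.49, limma adjusted p = 0.00203), while Cebpe did not pass. Of the other nearest protein-coding genes, Cebpg beside Cebpa, Ptpn1 beside Cebpb, Mzt2 beside Cebpd, Cox4i1 beside Irf8, Tspan33 beside Irf5 and Nsl1 beside Batf3 were tested, and none passed. In the GENCODE M21 annotation some members share exonic bases with a gene on the opposite strand, and the counting is not stated to use strand. Cebpb shares 312 with Tmem189, Cebpd 562 with Spidr, Irf5 411 with Tnpo3 and Cebpa 51 with Gm45091. The log2 values of Tmem189, Spidr and Tnpo3 lay between -0.07 and -0.05, and none of them passed.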

How the data were processed

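RNA was sequenced from GFP-sorted spleen cells in 4 health and 3 periodontitis libraries. The submitters' processing notes name mm10, HISAT2 2.0.5, featureCounts 1.5.0-p3 and DESeq2, and give no roles. The authors deposited FPKM values for 54532 genes and no counts. Times gene length, the deposited FPKM values are whole multiples of a step per library, within 0.001 of a read, which gives back the reads. A read in a gene of 1 kilobase is worth 0.0594 to 0.0705 FPKM. That worth did not follow the recovered depth. It was 0.0673 FPKM in periodontitis 2, with 16717942 reads, and 0.0595 FPKM in periodontitis 3, with 14991990 reads. Of entries that share a gene name, the most abundant was kept.

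Groups and library numbers were taken from the descriptions in the labels. The sample titles number the periodontitis libraries differently. Genes averaging 1 FPKM or more were tested on log2(FPKM + 1), which understates changes of low genes, with limma 3.58.1 in R 4.3.3 with a variance trend, and p-values were adjusted over all 12999 genes tested. For single differences within libraries, an exact permutation test ran over 35 assignments. Other scalings, filters and pseudocounts, limma's voom on the recovered reads and fits without each library were tried. The fit was tested on simulated data.

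The members and lists were chosen with earlier results of these data known. Named are the members, up to 4 genes per list with the smallest unadjusted p, all called genes of a list with at most 6, the 3 genes nearest in pattern to a member, and chromosomal neighbours. A gene that this rule names is not reported here. Genes of the marker lists are given mostly as counts and sums. Irf1, Irf2, Irf3, Irf9, Elane, Prtn3, Camp, Ngp, Chil3, Srebf1, Scd1, Scd2, Xcr1, Cd68, Il17a, Xist, Ddx3y and overlapping genes were named after their values were seen. So were S100a8, Ly6g, Retnlg and Batf2. Every pair of libraries differed by more than sampling noise.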

Additional observations from a re-analysis of the deposited data

Results flagged for a closer look

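Over 72 results tested for a library far from the others in health, 7 stood apart, each in health 1, and none of them was among the 9 factors. Csf1r was 1138 FPKM in health 1 against 383 to 463 in the other 3, Mrc1 was 438 FPKM against 159 to 181, and Cd5l was 1041 FPKM against 339.8 to 397. Vcam1 was 884 FPKM against 348 to 369.8, Cd14 was 209.8 FPKM against 73.0 to 86.3, and Cadm1 was 52.2 FPKM against 19.2 to 22.1. Trac, a T cell receptor chain, was low at 50.8 FPKM against 88.3 to 91.7. About 1 in 20 such groups is flagged by chance. The periodontitis group of 3 was not tested this way.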

How the results depend on the processing

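Spi1, Cebpa, Nr1h3, Irf8, Irf5 and Batf3 stayed lower and past the threshold in the 16 alternatives other than the replicate block, with an adjusted p of at most 0.0359. Cebpb did not pass without a filter on low values (log2 fold change -1.12, adjusted p = 0.0681). Cebpe passed with libraries rescaled to the same total (-1.48), with quantile normalization (-1.22) and with features under 200 bases left out (-1.22). These scalings moved the median of all genes by -0.38, 0.12 and -0.16. Rescaling to the same total gave 417 genes higher and 2723 lower, in place of 732 and 1321. Leaving out single libraries gave -1.33 to -0.84 for Cebpb, -1.82 to -1.23 for Cebpd and -1.60 to -0.72 for Cebpe. Without health 1, 2 and 3, 484, 445 and 482 genes were higher, and without health 2, 871 were lower. Library numbers are not shown to pair the samples (correlations of deviations for numbers 2, 3 and 4 of -0.0466, -0.0164 and 0.0373). With them as a replicate block Cebpb was at -1.04 (adjusted p = 0.131) and Batf3 at -1.59 (adjusted p = 0.0718), 6 members were lower, and 321 genes were higher and 657 lower. A block by the different numbers in the sample titles was not tried. Against Spi1, where no difference could pass, the sign of Batf3 turned with quantile normalization (0.18), and single libraries left out gave -0.42 to 0.20 for Batf3 and -0.15 to 0.16 for Irf5. With libraries rescaled to the same total, Nr1h2 (-0.14) and Ccl3 (-0.043) changed sign. Single libraries left out gave -0.16 to 0.67 for Ccl3, negative without periodontitis 2, and -0.41 to 0.080 for Rxrb, positive without periodontitis 4. The cause was not tested. Nr1h3 relative to the macrophage markers ranged from 0.13 to 1.23 over the 16 alternatives and passed in none. Depth limits Nr1h3 and Batf3 most, with 87 and 73 reads in their lowest libraries.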
